A study of Mus musculus with 9 samples.

Results

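The genes described here are 8 genes of cholinergic neurons: Chat, Slc18a3, Slc5a7, Ache, Prima1, Colq, Bche and Ngfr. They were taken as all probes of the unnormalized probe table whose gene name on the array is CHAT, SLC18A3, SLC5A7, ACHE, PRIMA1, COLQ, BCHE or NGFR, which gave 13 of the 45281 probes and 8 of the 30854 array gene names. Their RNA was measured in 3 parts of the mouse brainstem, labelled target, dorsal and ventral, with 3 arrays per region and 9 arrays in all. Every array held RNA of whole tissue from male Chat-Cre:Ai9 mice aged 8 weeks. All of these mice carry Cre recombinase driven by Chat, and the Ai9 reporter, from which cells with active Cre make tdTomato, so no array comes from an animal without the transgenes. The column headers name mice 1 to 3, each of which gave 1 array per region. The sources used here do not give what set the target region apart, how the tissue was dissected or whether labelled cells guided it. In such tissue RNA, fewer cells of a type and less RNA per cell cannot be told apart.

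Cholinergic neurons make acetylcholine from choline and acetyl-CoA with choline acetyltransferase (Chat). They load it into synaptic vesicles through the vesicular acetylcholine transporter (Slc18a3) and take choline back up from the cleft through the high-affinity choline transporter (Slc5a7). Acetylcholinesterase (Ache) ends the signal by splitting the transmitter, and it is held in place by 1 of 2 anchors: Prima1, a proline-rich membrane protein, in the brain, and Colq, a collagen tail, at the neuromuscular junction. Butyrylcholinesterase (Bche) is a related esterase that is also made by glia, and Ngfr, the low-affinity neurotrophin receptor p75, marks the cholinergic neurons of the basal forebrain. In the brainstem, cholinergic neurons lie in the cranial motor nuclei and in the pedunculopontine and laterodorsal tegmental nuclei.

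Of the 8 genes 4 were tested, and Prima1 was the only 1 of these with a difference between regions that passed. Prima1 was higher in target and in dorsal than in ventral, by 2.57-fold and 2.83-fold. Each of these comparisons called 1 of 5 tested member probes, against 1.78% and 7.98% of all tested probes. The call between target and ventral was lost when the mouse was added as a block, whereas the call between dorsal and ventral was kept. The 3 genes that define a cholinergic neuron, Chat, Slc18a3 and Slc5a7, were too close to background to be tested with any of their probes, so the arrays gave no measure of how cholinergic neurons were spread over the 3 regions.

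The promoters of 3 genes are shown, that of Prima1 because it was the gene that differed, and those of Chat and Slc18a3 because Chat drives Cre in these mice and both genes form 1 locus. On assembly GRCm38.p6 the Slc18a3 gene (chromosome 14, 32462437 to 32464850) lies inside the Chat gene (chromosome 14, 32408203 to 32465909), with its start site 1059 bases downstream of the Chat start site on the same strand. Each window runs 5′ to 3′ from 250 bases before to 50 bases after the start site, from RefSeq on GRCm38.p6. For Prima1 this start site lies 573 bases inside the outer end of the annotated gene, so the window does not cover that end, whereas the Chat and Slc18a3 windows start from the gene's end. Capitals mark the motifs searched on both strands. These were the GC box with the letters GGGCGG, the core promoter motif with the letters TATAAA, the E-box with the letters CACGTG and the cAMP response element with the letters TGACGTCA.
Prima1 (chr12:103242097-103242396, minus strand): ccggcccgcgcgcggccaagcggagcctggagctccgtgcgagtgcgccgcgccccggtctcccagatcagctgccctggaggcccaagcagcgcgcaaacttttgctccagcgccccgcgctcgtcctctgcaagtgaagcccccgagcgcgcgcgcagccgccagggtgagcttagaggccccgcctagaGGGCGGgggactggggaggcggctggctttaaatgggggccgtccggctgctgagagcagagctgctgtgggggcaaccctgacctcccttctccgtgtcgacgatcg
Chat (chr14:32465860-32466159, minus strand): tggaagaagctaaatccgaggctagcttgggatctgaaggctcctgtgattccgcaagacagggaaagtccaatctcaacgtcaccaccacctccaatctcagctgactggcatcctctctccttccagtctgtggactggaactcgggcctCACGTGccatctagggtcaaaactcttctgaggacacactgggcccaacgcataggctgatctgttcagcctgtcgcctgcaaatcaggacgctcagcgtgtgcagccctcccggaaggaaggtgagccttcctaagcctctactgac
Slc18a3 (chr14:32464801-32465100, minus strand): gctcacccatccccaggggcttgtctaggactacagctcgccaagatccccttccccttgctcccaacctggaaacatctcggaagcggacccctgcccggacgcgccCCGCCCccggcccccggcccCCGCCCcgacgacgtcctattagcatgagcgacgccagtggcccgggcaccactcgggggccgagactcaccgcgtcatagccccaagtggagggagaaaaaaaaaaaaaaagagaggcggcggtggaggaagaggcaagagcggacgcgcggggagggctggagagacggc
The Prima1 window held 1 GC box, 33 CpG dinucleotides and 71.7% G or C, against a median of 52.7% over all 32851 windows of the table. The Chat window held 1 E-box, 10 CpG and 55.7% G or C, and the Slc18a3 window 2 GC boxes, 27 CpG and 67.0%. A GC box was present in 5 of the 7 windows listed for these genes and in 35.7% of all windows. An E-box was present in 2 of 7, those of Chat and Ache, and in 7.15% of all windows. The core promoter motif was present in 1 of 7, that of Slc5a7, and in 13.6% of all windows. The cAMP response element was in 0 of 7 and in 1.79% of all windows. Colq had no entry. These matches describe letters and are not sites of binding.

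A probe counts as above background on an array when its detection p, from its rank among the negative control beads of that array, is below 0.05. By this measure 4 of the 13 probes were above background on all 9 arrays: Ache probe 6130326, Prima1 probe 2650280, Bche probe 2760327 and Ngfr probe 4050064. Ache probe 610603 was above background on 7 of 9 arrays. These 5 probes, of 4 genes, passed the filter of at least 3 arrays and were tested among 20461 probes. The other 8 probes, 3 of Chat, 2 of Ngfr and 1 each of Slc18a3, Slc5a7 and Colq, did not. Together they gave 72 readings, of which 4 (5.56%) were above background, where the threshold itself is set to be passed by 5% of the negative controls. Levels below are log2 intensities after background correction and quantile normalization between arrays, and their precision is limited by 3 arrays per region.

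**Figure D1:**
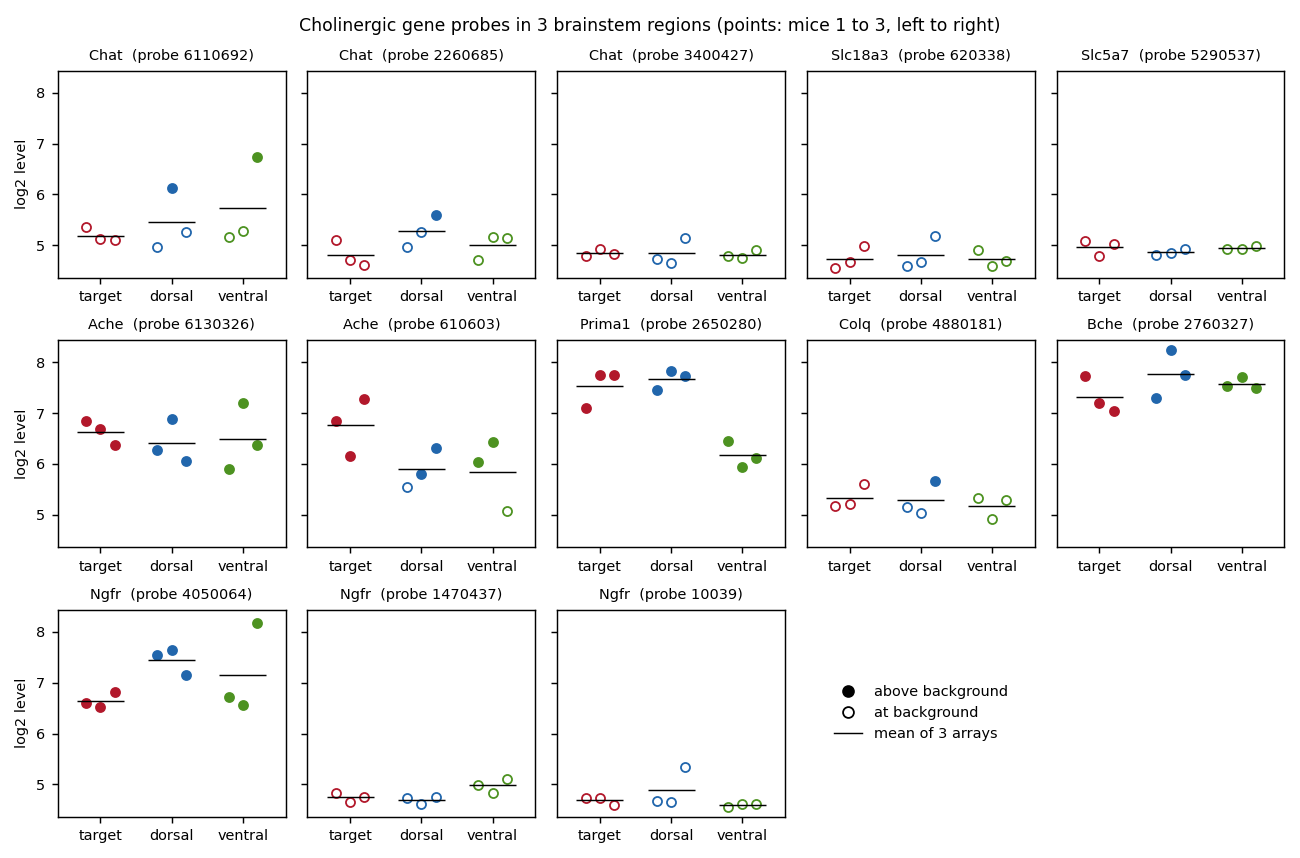
Log2 level (vertical axis) of the 13 probes of the 8 cholinergic genes on each of 9 arrays, with target, dorsal and ventral from left to right and mice 1 to 3 from left to right within a region. Filled points were above background, open points were not, and the line is the mean of 3 arrays; Prima1 is the probe whose ventral arrays all lie below its target and dorsal arrays, and Chat, Slc18a3, Slc5a7 and Colq points are nearly all open.

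Chat, the enzyme that makes acetylcholine, has 3 probes on the array. Probe 6110692 read 5.35, 5.12 and 5.11 in target (mice 1 to 3), 4.97, 6.13 and 5.27 in dorsal, and 5.16, 5.29 and 6.74 in ventral. Only dorsal array 2 and ventral array 3 were above background. Chat probe 2260685 read 5.11, 4.72 and 4.62 in target, 4.97, 5.27 and 5.59 in dorsal, and 4.70, 5.17 and 5.14 in ventral, with dorsal array 3 alone above background. Chat probe 3400427 lay between 4.65 and 5.15 and was above background on 0 of 9 arrays. No array was above background for more than 1 Chat probe, and no target array was for any. On ventral array 3, where Chat probe 6110692 reached a detection score of 0.999 of 1, the other Chat probes scored 0.691 and 0.368. On dorsal array 2, where it scored 0.996, they scored 0.831 and 0.0673.

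Slc18a3, the vesicular transporter inside the Chat locus, ranged from 4.55 to 5.19 over the 9 arrays, with detection scores of 0.0150 to 0.794. Slc5a7, the choline transporter, ranged from 4.79 to 5.09, with scores of 0.248 to 0.655. Neither was above background on any array. Of the defining genes of cholinergic neurons, Chat was thus above background on 3 arrays, each by 1 of its 3 probes, and the others on 0, which does not show that their transcripts were absent. The lowest level among all readings above background was 5.55.

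Acetylcholinesterase was measured by a pair of probes, which gave different pictures. Ache probe 6130326 read 6.84, 6.68 and 6.36 in target, 6.28, 6.89 and 6.05 in dorsal, and 5.90, 7.20 and 6.37 in ventral. The 3 regions overlapped throughout. The difference was 0.13 for target minus ventral (SE 0.34, 95% interval -0.64 to 0.91, limma adjusted p = 0.895), 0.22 for target minus dorsal (-0.55 to 0.999, adjusted p = 0.872) and -0.09 for dorsal minus ventral (-0.86 to 0.69, adjusted p = 0.913). Ache probe 610603 read 6.84, 6.15 and 7.28 in target, 5.55, 5.81 and 6.32 in dorsal, and 6.04, 6.43 and 5.07 in ventral. Dorsal array 1 and ventral array 3 were not above background. Its target mean of 6.76 ± 0.57 (SD, n = 3) lay above 5.89 ± 0.39 in dorsal and 5.85 ± 0.70 in ventral, with overlap of single arrays in both cases. The difference of 0.91 between target and ventral (SE 0.40, interval 0.0026 to 1.81, unadjusted p = 0.0495 by limma) did not pass over all probes (adjusted p = 0.311). Nor did the difference of 0.86 between target and dorsal (SE 0.40, adjusted p = 0.536). Over the 9 arrays the 2 Ache probes correlated at r = 0.18.

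Prima1, the membrane anchor of acetylcholinesterase in the brain, was read by 1 probe. Its gene lies on chromosome 12, from 103194453 to 103242719. The probe read 7.10, 7.74 and 7.75 in target, 7.45, 7.83 and 7.73 in dorsal, and 6.46, 5.94 and 6.12 in ventral. All 9 arrays were above background, and each ventral array lay below each array of the other 2 regions. Target arrays averaged 7.53 ± 0.37 and dorsal arrays 7.67 ± 0.20, against 6.17 ± 0.26 for ventral arrays (SD, n = 3 each).

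Between target and ventral Prima1 was 1.36 higher (SE 0.24, interval 0.83 to 1.90, adjusted p = 0.0303). The adjusted p was 0.0708 in the fit with a block for the mouse. It was the 1 called probe of the 5 tested members in that comparison, in which 1.78% of all 20461 probes were called (1.17% higher in target and 0.616% lower). The differences within mouse 1, 2 and 3 were 0.64, 1.81 and 1.63. Between dorsal and ventral Prima1 was 1.50 higher (SE 0.24, interval 0.96 to 2.03, adjusted p = 0.00627, or 0.0189 in the blocked fit). It was again the 1 called probe of 5, where 7.98% of all probes were called (4.06% higher in dorsal and 3.92% lower), and the differences within mouse 1, 2 and 3 were 0.99, 1.89 and 1.62. The difference between target and dorsal was -0.14 (SE 0.24, interval -0.67 to 0.40, adjusted p = 0.889), and 0 of the 5 members were called there, where 0.0586% of all probes were (0.044% higher in target and 0.0147% lower). At an unadjusted p below 0.05 the counts of members were 2 of 5 for target minus ventral, 0 of 5 for target minus dorsal and 1 of 5 for dorsal minus ventral. Over all tested probes the shares were 16%, 9.6% and 22.2%, so that 1 of 5 is near the share of all probes. The 2 comparisons that called Prima1 share the ventral arrays.

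**Figure D2:**
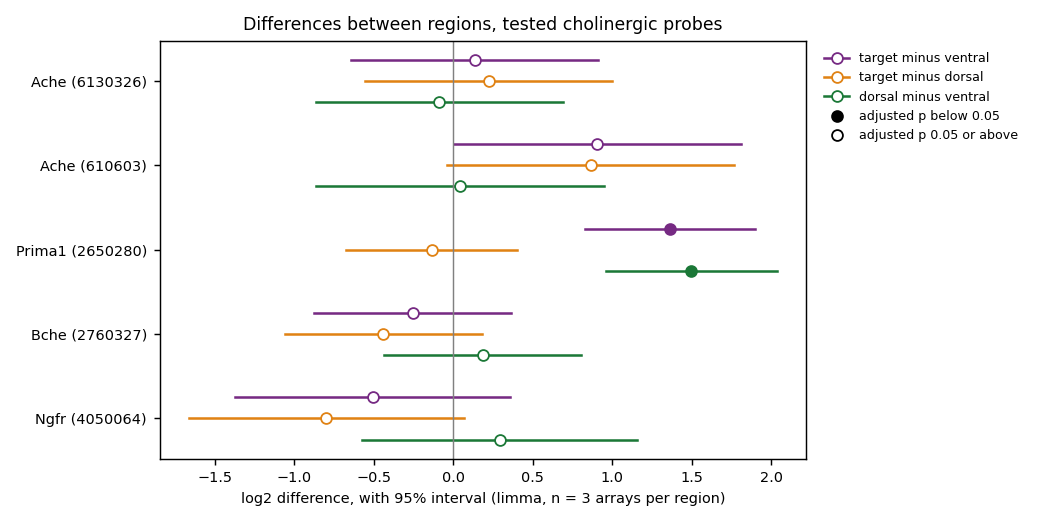
Log2 differences between regions (horizontal axis) for the 5 tested cholinergic probes, with 95% intervals from limma. Filled points passed at an adjusted p below 0.05: Prima1 for target minus ventral at 1.36 and for dorsal minus ventral at 1.50. The intervals of the other probes include 0, except that of Ache probe 610603 for target minus ventral, which starts just above 0, at 0.0026.

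The Prima1 intensities before normalization showed the same low ventral level less clearly. They were 248.1, 354.6 and 370.3 in target, 317.7, 346.6 and 390.8 in dorsal, and 276.0, 256.9 and 196.4 in ventral. In mouse 1 the ventral array was thus brighter than the target array. The median intensity over all probes was 221.0 on that ventral array and 159.8 on that target array. After the authors' quantile normalization the Prima1 intensities were 285.9, 363.1 and 364.1 in target, 323.2, 375.4 and 361.3 in dorsal, and 236.3, 208.5 and 217.3 in ventral, with no overlap of ventral with the others. On log2 of those intensities, which keep the background, the difference was 0.61 between target and ventral (adjusted p = 0.0218) and 0.68 between dorsal and ventral (adjusted p = 0.00509) rather than the 1.36 and 1.50 found after background correction. Each Prima1 intensity rests on 36 to 52 beads, and the standard error over beads was 3.62% to 5.92% of the intensity on an array.

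The call between target and ventral depended on single arrays. It was lost without target array 2 (adjusted p = 0.0890) or target array 3 (0.120), and without any 1 of the 3 ventral arrays (0.0525, 0.0812 and 0.0720 for mice 1 to 3). It was also lost without dorsal array 2 (0.0516) or dorsal array 3 (0.0525). These enter through the shared estimate of the spread, the normalization, the filter and the adjustment over tested probes. Without them 19804 and 19679 probes were tested, against 20461. The call between dorsal and ventral held without any single array, with adjusted p-values of 0.00559 to 0.0286.

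**Figure D3:**
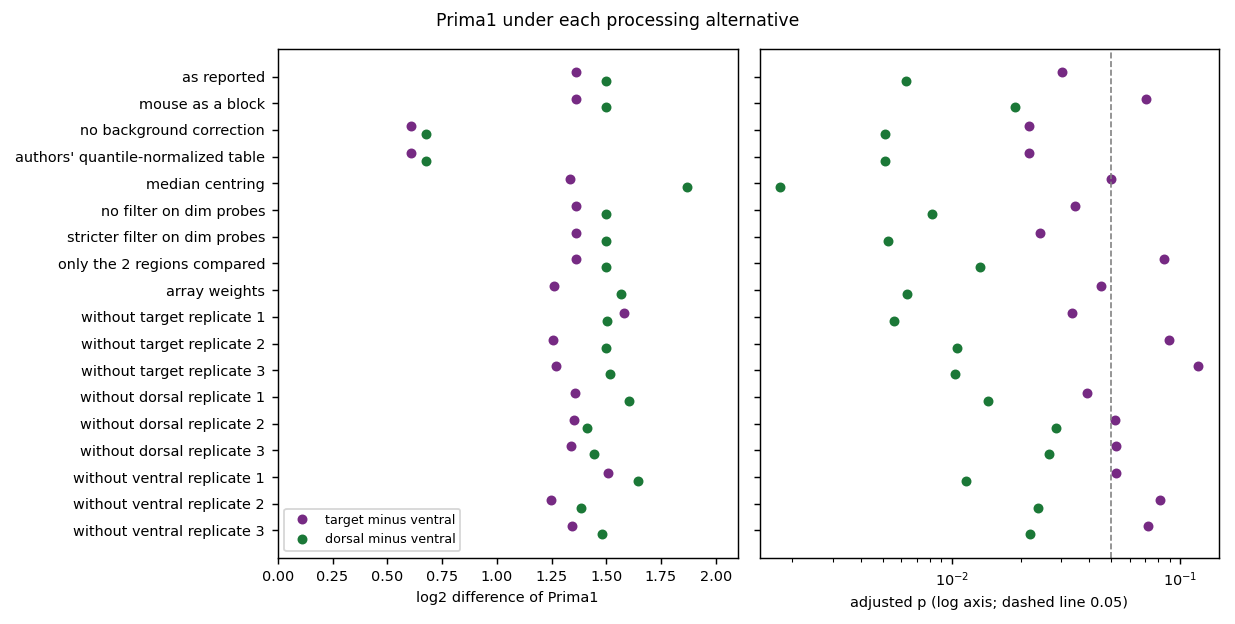
Prima1 log2 difference (left axis panel) and its adjusted p on a log axis (right panel) as reported and under 17 alternatives, for target minus ventral and dorsal minus ventral. All dorsal minus ventral points lie left of the dashed line at 0.05, and 9 of the 17 alternatives for target minus ventral lie right of it.

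Background varied between arrays, with ranges that overlapped between the regions. The number of probes above background was 16842 to 19172 in target, 17997 to 19945 in dorsal and 16703 to 18645 in ventral. The median unnormalized intensity was 159.8 to 219.3 in target, 146.1 to 167.8 in dorsal and 165.8 to 230.9 in ventral. Their part in the Prima1 difference was not tested.

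Markers of other cell types also moved between these regions. Over all tested probes, 1.78% were called between target and ventral and 7.98% between dorsal and ventral. Of 7 tested genes of oligodendrocyte precursors, 2 were higher in target than in ventral, and 3 were higher and 1 was lower in dorsal than in ventral. Of the 2 higher in target, Nkx2-2 (adjusted p = 0.0412) lost its call when blocked by mouse (adjusted p = 0.0911), and Neu4 was called by probe 4290176 (difference 2.01), while its probe 1690634 gave 0.07 (adjusted p = 0.943). Their summed linear level was 8518 to 9070 in target, 8738 to 9411 in dorsal and 7643 to 7670 in ventral, and Olig2 was above background on 0 arrays. Of 10 genes of mature oligodendrocytes, 0 were called between target and ventral and 4 were lower in dorsal than in ventral. Of these 4, Mobp and Mbp were each called only by the brightest of 5 probes. In that comparison the dimmer probes gave -0.31 to 0.29 for Mobp and -0.17 to 0.62 for Mbp, and none passed. The sum of the 10 genes by brightest probe was 34591 to 38340 in target, 25678 to 27923 in dorsal and 40695 to 46183 in ventral. This was opposite in order to Prima1 between dorsal and ventral. Of 10 pan-neuronal genes, 0 were called between target and ventral and 2, Stmn2 and Eno2, were lower in dorsal than in ventral. Stmn2 gave -1.17 there by probe 3870095 and 0.68 by its dimmer probe 870347 (adjusted p = 0.578). The sums of the 10 genes were 20903 to 25136 in target, 21201 to 26361 in dorsal and 24463 to 27338 in ventral. The part of these cell types in the Prima1 difference was not tested.

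In the remaining lists, 1 mural and meningeal gene of 7 was higher in target than in ventral. Of 7 microglial genes 1, Laptm5, was lower in target than in ventral (adjusted p = 0.0356, but 0.0610 when blocked by mouse). Over all tested probes, 1.17% were higher and 0.616% lower in target than in ventral. Laptm5 was also lower in dorsal than in ventral, and 1 blood cell gene of 4, Hbb-b1, was higher there by its brightest probe, 4290291. Over all tested probes, 4.06% were higher and 3.92% lower in dorsal than in ventral. Probes of Hbb-b1 disagreed in that comparison: probe 4210739 was also called higher (0.77), and probes 1300440 and 6770100 were called lower (-1.17 and -0.92). The summed level of the blood cell genes was 3179 to 3485 in target, 3193 to 3640 in dorsal and 1953 to 2340 in ventral, with Hbb-b1 taken by probe 4290291, and probe 1300440 is nearly as bright and ran the other way. The mural and meningeal sum was 3125 to 3602 in target, 2570 to 3078 in dorsal and 3022 to 3667 in ventral, and Igf2, Lum, Pdgfrb, Slc22a6 and Tagln were not tested. The microglial sum was 2202 to 2588 in target, 1968 to 2709 in dorsal and 2689 to 3170 in ventral, and C1qa, C1qc and Cx3cr1 were not tested. No astrocyte, endothelial, Schwann cell or ependymal gene of these lists was called in any of the 3 comparisons by its brightest probe, although a dimmer probe of the astrocyte gene Slc1a2, probe 3940064, was lower in target than in ventral, with a difference of -0.89 (adjusted p = 0.0412), and lower in dorsal than in ventral, with a difference of -1.22 (adjusted p = 0.00367).

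Colq, the anchor used at the neuromuscular junction, was not tested. Its probe ranged from 4.92 to 5.66 and was above background on dorsal array 3 alone. Dorsal array 3 was thus the only array above background for Colq and for Chat probe 2260685, and it had the largest number of probes above background in the series.

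Bche, the related esterase, read 7.74, 7.19 and 7.04 in target, 7.29, 8.25 and 7.75 in dorsal, and 7.54, 7.70 and 7.50 in ventral. All arrays were above background and the regions overlapped. The difference was -0.26 for target minus ventral (interval -0.87 to 0.36, adjusted p = 0.709), -0.44 for target minus dorsal (-1.06 to 0.18, adjusted p = 0.652) and 0.18 for dorsal minus ventral (-0.43 to 0.80, adjusted p = 0.750). Differences of up to about 1 on the log2 scale are inside these intervals.

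Ngfr, the neurotrophin receptor p75, read 6.59, 6.51 and 6.82 in target, 7.54, 7.63 and 7.15 in dorsal, and 6.71, 6.56 and 8.17 in ventral by probe 4050064. Each target array lay below each dorsal array, and ventral array 3 was the highest of all 9. The difference of -0.80 between target and dorsal (SE 0.38, interval -1.66 to 0.07) did not pass (adjusted p = 0.555), nor did -0.51 between target and ventral (adjusted p = 0.579) or 0.29 between dorsal and ventral (adjusted p = 0.714). The ventral mean rested on mouse 3: without ventral array 3 the difference between target and ventral was 0.00 (adjusted p = 0.997). The other Ngfr probes, 1470437 and 10039, ranged from 4.61 to 5.11 and from 4.56 to 5.35 and were above background on no array, so no second probe checked the level of Ngfr.

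The median difference over the 5 tested member probes was 0.13 for target minus ventral, -0.14 for target minus dorsal and 0.18 for dorsal minus ventral. Over all tested probes it was 0.02, -0.02 and 0.04. The members did not share 1 pattern over the arrays: Prima1 correlated at -0.14 and 0.29 with the Ache probes, at -0.06 with Bche and at -0.05 with Ngfr (n = 9 arrays, which share region and mouse).

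The genes whose levels followed each member most closely were named by Pearson's r over the 9 arrays among tested probes, as a description. For Prima1 they were Ano4 (r = 0.979), Igsf9b (0.978) and Angptl7 (0.977). Ano4 encodes a member of the anoctamin family, Igsf9b an adhesion molecule of inhibitory synapses and Angptl7 an angiopoietin-like secreted protein. For Ache probe 6130326 they were Usp53 (0.980), Polr3a (0.939) and Ncoa2 (0.932), and for Bche they included Tars (0.901) and Pex26 (0.889). For Ngfr they were Iffo1 (0.967), Sobp (0.951) and Meltf (0.939). These last genes averaged 5.26, 5.18 and 5.32 in target, below 5.55, the lowest level of any reading above background. Their target levels were thus near background. The ventral mean of Igsf9b, 5.42, also lay below 5.55 and was thus near background.

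The receptors on which acetylcholine acts showed no called difference. Of 16 nicotinic receptor subunit genes, all on the array, 3 were tested and 0 were called in any comparison. Chrna4 and Chrnb2, the subunits of the main nicotinic receptor of the brain, and Chrna7 were above background on all 9 arrays. The largest difference by brightest probe was -0.29 for Chrna7, target minus dorsal (SE 0.20, adjusted p = 0.685), followed by -0.22 for Chrnb2, dorsal minus ventral (SE 0.33, adjusted p = 0.756). Their dimmer probes spread more widely. In dorsal minus ventral Chrna7 gave 1.03 by probe 2510148 and 0.14 by probe 4070242. Chrnb2 gave 0.69 there by probe 6400309 and -0.13 by probe 380181. None of these passed. Chrna4 averaged 11.72 in target, 11.70 in dorsal and 11.73 in ventral. The other 13 subunit genes, among them the muscle subunits Chrna1, Chrnd, Chrne and Chrng and the ganglionic Chrna3 and Chrnb4, had no probe above background on more than 2 arrays. Of 5 muscarinic receptor genes 2 were tested and 0 called. By brightest probe the largest values were 0.65 for Chrm3 (SE 0.32, adjusted p = 0.268) and 0.38 for Chrm2 (SE 0.23, adjusted p = 0.399). Both were in dorsal minus ventral. The dimmer Chrm2 probe 2370259 gave 0.56 there (adjusted p = 0.343) and -1.08 in target minus dorsal (adjusted p = 0.330). By brightest probe, Chrm3 was above background on 1 of the 3 ventral arrays and Chrm2 on 2.

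Proteins that tune nicotinic receptors were all measured, 7 of 7 genes on the array. Ly6e was lower in dorsal than in ventral, with a difference of -1.95 (SE 0.35, adjusted p = 0.0111, at means of 6.52 and 8.47). Its dimmer probe 6550376 gave -0.33 in the same comparison (adjusted p = 0.515). The other 6 did not pass in any comparison, among them Lynx1, a brake on nicotinic receptors, at -0.16 in dorsal minus ventral (adjusted p = 0.702), and the chaperone gene Ric3, at -0.75 in the same comparison (adjusted p = 0.0614). No member of this list was called between target and either neighbour. Over all tested probes, 3.92% were lower in dorsal than in ventral, against 1 of these 7 genes.

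The supply of choline and acetyl-CoA to the synthesis of acetylcholine was followed in 2 further lists. Of 14 tested genes of choline transport and phosphocholine metabolism, 0 were called between target and ventral or target and dorsal, and 1 was lower in dorsal than in ventral. This was Gpcpd1, which splits glycerophosphocholine, with a difference of -1.24 (SE 0.32, adjusted p = 0.0482, but 0.0549 when blocked by mouse). Its other probes 3400328, 1110538 and 3290068 gave -0.49, -0.51 and -0.04 and did not pass. Over all tested probes 7.98% were called between dorsal and ventral, so 1 of 14 is near that share. The median difference of the list was 0.18 for target minus ventral, 0.12 for target minus dorsal and -0.01 for dorsal minus ventral, against 0.02, -0.02 and 0.04 over all tested probes.

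Of 8 genes of acetyl-CoA supply, Coasy, which makes coenzyme A, exceeded its dorsal level in target by 1.69 (SE 0.21, adjusted p = 0.0435, but 0.0984 when blocked by mouse), at means of 8.11 and 6.42. It was lower in dorsal than in ventral, with a difference of -2.55 (adjusted p = 4.21e-04). Acly, the enzyme that makes cytosolic acetyl-CoA from citrate, was lower in dorsal than in ventral, with a difference of -1.57 (SE 0.20, adjusted p = 0.00200), at means of 10.01 and 11.58. It gave -0.76 in target minus ventral (adjusted p = 0.0936). The subunit genes of pyruvate dehydrogenase, Pdha1, Pdhb and Dlat, did not pass in any comparison. Both enzymes thus ran opposite to Prima1 between dorsal and ventral, where they were lower and Prima1 higher in dorsal. Over all tested probes, 0.0586% were called between target and dorsal, and 3.92% were lower in dorsal than in ventral.

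Transcription factors that specify cholinergic neurons were mostly below detection. Of 16 genes 5 were tested, and Isl1, Isl2, Mnx1, Lhx4 and Phox2a, which act in motor neurons, had 0 arrays above background by any probe. Gbx2, a factor of the anterior hindbrain, was higher in dorsal than in ventral by 1.30 (SE 0.30, adjusted p = 0.0301, but 0.0625 when blocked by mouse). It was the 1 called gene of the 5, where 7.98% of all tested probes were called.

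Of 9 tested genes co-expressed in brainstem cholinergic or motor neurons, Calca alone had an adjusted p below 0.05. This was in target minus ventral, where 1.78% of all tested probes were called. Calca met the filter of 3 arrays only through target, where it is high, with 1 dorsal and 0 ventral arrays above background. Its difference is therefore given as a description. Calca, the gene of calcitonin and of the peptide CGRP of motor neurons, was at least 4.40-fold higher in target than in ventral. It was above background on 3 of 3 target arrays and 0 of 3 ventral arrays. Of 4 Calca probes on the array only 1 passed the filter, and no test was run on the 4.40-fold bound. For this bound each ventral array enters at its lowest level above background, or at the Calca level where that is higher. Calca is also made outside motor neurons. Slc10a4, a vesicular protein of cholinergic neurons, gave 0.12 in the same comparison (SE 0.45, adjusted p = 0.928, with 1 of 3 arrays above background in each of the 2 regions). Nos1, the neuronal nitric oxide synthase that tegmental cholinergic neurons also make, gave 0.03 (SE 0.35, adjusted p = 0.978, with 2 of 3 target arrays and 1 of 3 ventral arrays above background). Prph, peripherin, an intermediate filament of motor neurons, gave 0.20 (SE 0.23, adjusted p = 0.735).

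**Figure D4:**
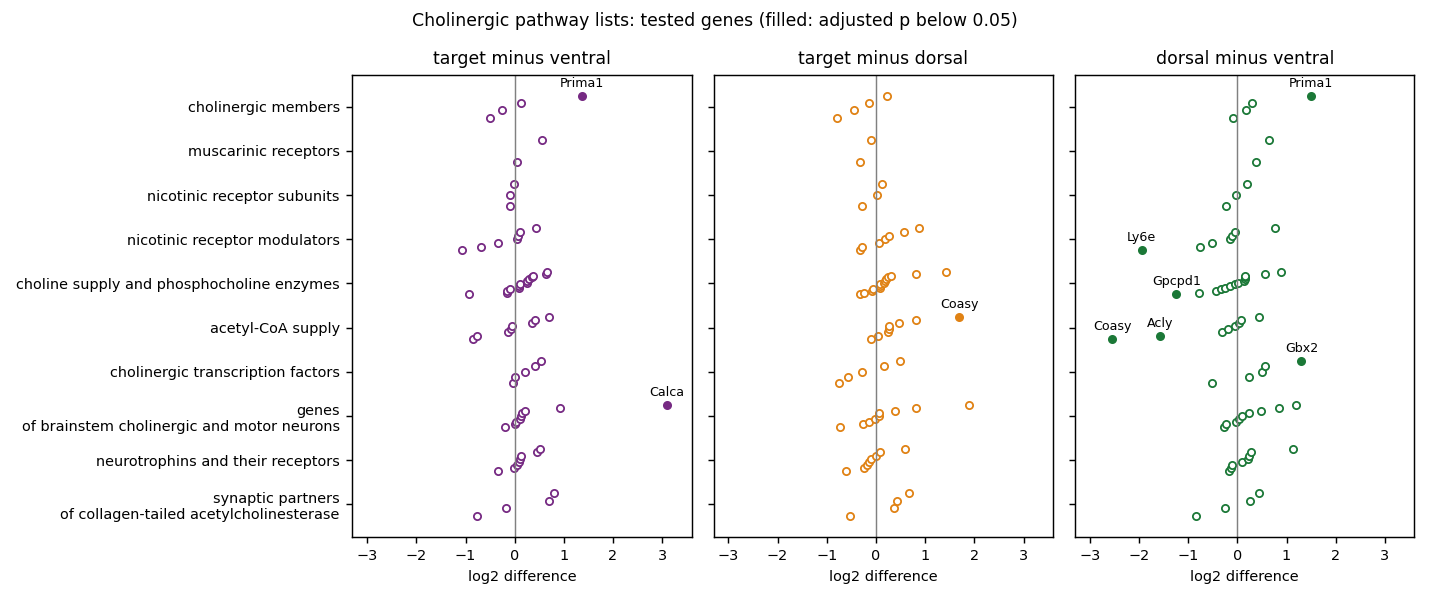
Log2 differences (horizontal axis) of the tested genes of 10 cholinergic lists, 1 brightest probe per gene, for target minus ventral, target minus dorsal and dorsal minus ventral. Filled, named points had an adjusted p below 0.05. They are Prima1 and Calca for target minus ventral and Coasy for target minus dorsal. For dorsal minus ventral they are Prima1, Ly6e, Gpcpd1, Coasy, Acly and Gbx2. Calca met the filter only through its target arrays, so its point is a description.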

How the data were processed

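RNA came from QIAzol lysates cleaned up on miRNeasy Micro columns and was labelled with the TotalPrep kit, per the labels' protocols. Per the file headers, the authors exported linear intensity values of Illumina MouseWG-6 arrays from GenomeStudio 1.6.0, both unnormalized and quantile-normalized. The deposited export also holds the count of beads, the bead SD and a detection score per probe and array, and 1 minus the score was used as detection p. Background correction (normexp, offset 16), quantile normalization and log2 were done here by neqc of limma 3.58.1 (R 4.3.3). A probe was tested with detection p below 0.05 on at least 3 of 9 arrays. Region was the only term of 1 lmFit and eBayes fit, adjusted by Benjamini-Hochberg over 20461 probes. The 95% intervals use limma's moderated error. Array names were updated through the RefSeq table of GRCm38.p6 (27760 probes by symbol, 8035 by synonym, 9486 kept), and the brightest tested probe stands for a list gene. The fit was checked on simulated data.

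The column headers name the mouse of each array, so arrays of 1 mouse are paired by animal. Deviations from the region means correlated at a median r of 0.03 for 9 pairs from the same mouse (-0.10 to 0.15) and -0.01 for 18 pairs from different mice. The mice are the replicates. The members and gene lists were chosen with earlier results of these data known. Named genes were all member probes, the 3 genes most correlated with each tested member, called list members (up to 4 per list and comparison) and, for lists without a call, the 2 largest differences; a few genes these rules name are not reported here. Alternatives were the mouse as a block, no background correction, the authors' quantile table, median centring, other filters, fits of 2 regions, array weights and each array left out. The headers name no slide, so no slide block was fitted. No columns were left unassigned.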

Additional observations from a re-analysis of the deposited data

How the results depend on the processing

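Prima1 stayed higher in target than in ventral under all 17 alternatives run, from 0.61 to 1.58, and passed in 8. With the mouse as a block it was 1.36 with an adjusted p of 0.0708, and with only both compared regions in the fit 1.36 with 0.0848, so that the count of called members in that comparison was 0 under each. With each array left out it ran from 1.25 to 1.58 and the count from 0 to 1. Prima1 between dorsal and ventral passed under all 17 (0.68 to 1.87). No other tested member passed under any of them. The differences that changed sign under an alternative were these. Without 1 array, Ache probe 610603 ran from -0.35 to 0.34 and Ache probe 6130326 from -0.38 to 0.27 in dorsal minus ventral, and the second of these from -0.16 to 0.50 in target minus ventral. Under median centring Ache probe 6130326 gave 0.21 in dorsal minus ventral and -0.052 in target minus dorsal. Without 1 array Bche ran from -0.057 to 0.42 in dorsal minus ventral, Ngfr from -0.80 to 0.0033 in target minus ventral, and Prima1 from -0.25 to 0.080 in target minus dorsal. The cause of these changes was not tested.

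Median centring moved the median of all tested probes to 0.36 in dorsal minus ventral and -0.35 in target minus dorsal, and called 2159 probes higher and 404 lower in dorsal than in ventral, against 830 and 802 as reported. The 365 calls between target and ventral became 154 with the mouse as a block, 833 without background correction, 832 in the authors' table, 178 with median centring, 123 with only both regions and 64 to 302 with an array left out. The 12 between target and dorsal became 3, 88, 88, 17, 1 and 1 to 3 under the same settings, 20 without a filter, 32 with the stricter filter and 89 with array weights. The 1632 between dorsal and ventral became 2563 with median centring and 939 to 1452 with an array left out. The block changed no other call of a member. The lists' blocked values stand beside them where the call changed.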

Other observations

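Neurotrophins and the partners of Ngfr were measured beside the receptor itself. Of 14 genes in the list, 8 were tested and 0 were called in any comparison. Bdnf gave 0.58 in target minus dorsal (SE 0.45, limma adjusted p = 0.719). Sort1, the co-receptor that binds pro-neurotrophins together with Ngfr, averaged 11.85 in target, 12.10 in dorsal and 11.81 in ventral and did not pass.

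Proteins that anchor or organise collagen-tailed acetylcholinesterase at the neuromuscular junction had 4 of 7 genes tested and 0 called. By brightest probe the largest values were -0.84 for the dystroglycan gene Dag1 in dorsal minus ventral (SE 0.39, adjusted p = 0.244, against 0.01 by probe 2760382) and 0.80 for the agrin gene Agrn in target minus ventral (SE 0.43, adjusted p = 0.411). Musk, Dok7 and Rapsn, which are known from muscle, were not tested.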
